A study of Arabidopsis thaliana with 30 samples.

Results

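In developing seeds of Arabidopsis thaliana, 104 of 13355 genes changed by at most 2-fold between 8 and 12 days after flowering (DAF) in both wild types. They were also lower in both the fus3-3 and the lec1-1 mutant at each age. The genes were chosen from these same measurements, using group means of log2 array signal. A gene was kept where its 12 minus 8 DAF change lay between -1 and 1 in Col-0 and in WS, and where its signal was lower by at least 1 log2 unit (2-fold) in fus3-3 than in Col-0 and in lec1-1 than in WS at 8 and at 12 DAF. Of the 13355 genes, 10383 met the limits on age in both wild types. Of those, 198 were also lower in fus3-3 at both ages, and 106 of the 198 were also lower in lec1-1 at both ages. AT3G01570 and IAA31 met the thresholds and were left out by name, which left 104 members. A narrower age limit of 0.5 log2 units kept 45 of these, so the others moved by more than that in at least 1 wild type.

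FUS3 is a transcription factor with a B3 DNA-binding domain, and LEC1 belongs to the NF-Y family of transcription factor subunits. With LEC2, another B3 factor, and ABI3 they direct seed maturation, the phase in which the embryo stores protein and oil and gains tolerance of desiccation. Embryos that lack LEC1 or FUS3 are known for reduced reserves, sensitivity to drying and leaf-like traits in the cotyledons, and lec2 seeds are known to keep more of their tolerance of drying.

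Seed RNA was hybridized to arrays from 5 genotypes at 8 and 12 DAF, with 3 arrays in each of 10 groups. Plants homozygous for fus3-3 were paired with wild-type Col-0, and plants homozygous for lec1-1 or lec2-1 with wild-type WS, so each mutant is 1 allele in 1 accession. All plants grew in 16 h of light and 8 h of dark at 22 °C, the seeds were dissected from siliques, and each group came from triplicate batches of plants. The arrays of Col-0 at 12 DAF carry a number in 2 parts, of which the latter was read as the replicate. The titles do not say what the first part means, and whether these 3 arrays are separate batches was not checked. LEC1, LEC2, FUS3 and ABI3 had no probe set paired with a single gene in the annotation used, so the mutated genes were not checked here. Whole seeds were measured, and fewer cells of a type and less RNA per cell cannot be told apart.

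Within every group the arrays correlated at 0.984 or above, and no pair of arrays exceeded 0.9964. The tissue label was checked against marker lists. The summed signal of 5 measured seed storage genes, those for the proteins laid down in maturing embryos, had group means of 13.548 to 16.212 on the log2 scale, and that of 4 oil body genes 13.393 to 15.477. The summed signal of 3 seed coat genes had group means of 9.363 to 12.476. The 3 endosperm genes measured (MPC, AGL62 and IKU2) summed to group means of 4.075 to 4.615 in 8 of the 10 groups and reached 5.954 in fus3-3 and 6.374 in lec1-1 at 12 DAF. There MPC, at 5.66 and 6.14, was above the median of all genes (3.93 and 3.98), while AGL62 and IKU2 were at 2.38 and 2.56 in fus3-3 and 2.39 and 2.58 in lec1-1. ALC, a factor of fruit opening and the measured gene of the silique wall list (1 of 6), had group means between 3.207 and 5.496.

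Signals of the members were first compared within the wild types, where the rule had fixed a small age change. The mean over the 12 wild-type arrays ran from 4.26 to 14.11 over the 104 probe sets with a median of 8.17, against 3.92 over all genes, and all 104 were above that median. The brightness of different probe sets does not rank amounts of transcript, and a gene must have signal to lose in order to enter the set. WS minus Col-0 had a median over members of 0.37 at 8 DAF and 0.25 at 12 DAF, and the levels in the wild types correlated at 0.97 and 0.96 across the 104 members. These points share arrays and probe sets, and the correlation is a description. The accessions differed by 1 log2 unit or more for 6 members at 8 DAF and for 8 at 12 DAF. AT1G53690 stood farthest apart, with group means of 7.86 ± 0.18 in Col-0 and 10.27 ± 0.22 in WS at 8 DAF (SD, n = 3), and 7.21 ± 0.41 and 10.29 ± 0.24 at 12 DAF. AT3G43270 was also brighter in WS, by 2.15 at 8 DAF and 1.87 at 12 DAF.

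**Figure D1:**
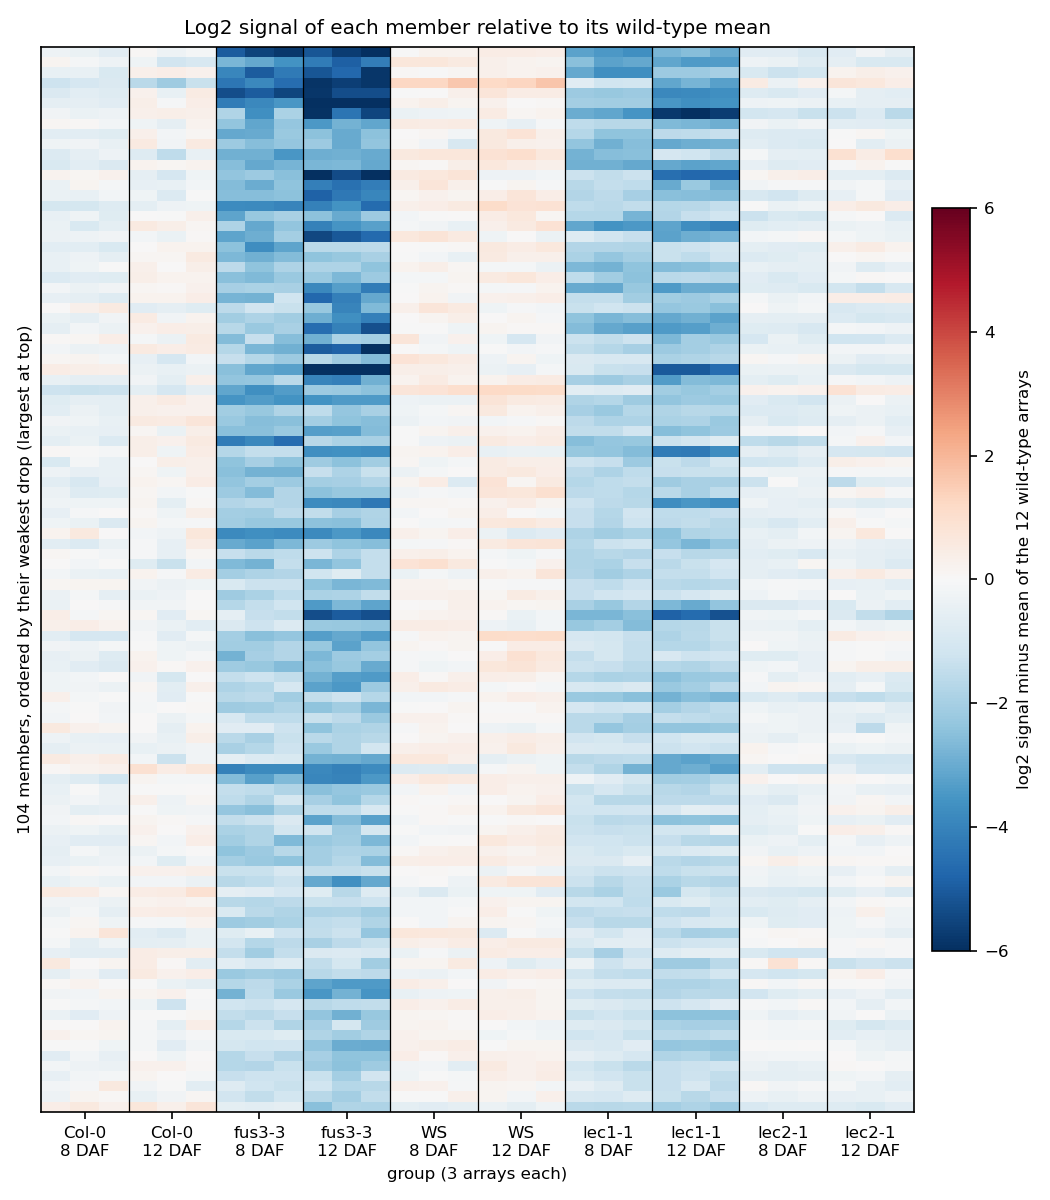
Log2 signal of the 104 members (rows) on the 30 arrays (columns, 3 per group), each as the difference from the member's mean over the 12 wild-type arrays, with colours that stop at -6 and 6. The fus3-3 and lec1-1 arrays are the darkest blue, as the choice of members requires, and the lec2-1 arrays lie nearer the wild types than these. The mean pools Col-0 and WS, and against WS alone the median lec2-1 change was -0.52 at both ages.

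The drops that chose the members were unequal in size. In fus3-3 the median member was lower than in Col-0 by -1.68 log2 units at 8 DAF (range -5.0 to -1.01) and by -2.41 at 12 DAF (-7.15 to -1.05). In lec1-1 the medians against WS were -1.56 at 8 DAF (-3.57 to -1.01) and -2.07 at 12 DAF (-6.12 to -1.09). All 3 mutant arrays lay below all 3 wild-type arrays for 104 of 104 members in each of these 4 comparisons, as they did for 15.4% and 50.8% of all genes in fus3-3 and for 20.3% and 59.6% in lec1-1 at 8 and 12 DAF. All 104 also passed an adjusted p under 0.05 and 2-fold in each comparison, which the rule makes nearly certain. Across all 13355 genes the share called lower in the same way was 4.25% in fus3-3 at 8 DAF, 11.5% in fus3-3 at 12 DAF, 5.77% in lec1-1 at 8 DAF and 9.93% in lec1-1 at 12 DAF, and nothing is read from the members' count.

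A drop of 2 log2 units or more (4-fold) was reached by 33 members in fus3-3 and 32 in lec1-1 at 8 DAF, and by 70 and 54 at 12 DAF. The fus3-3 drop was deeper at 12 than at 8 DAF for 84 members, the lec1-1 drop for 81, both for 69 and neither for 8. Over all genes the median difference went from -0.02 to -0.06 in fus3-3 and from 0.01 to -0.11 in lec1-1. The share of all genes below 0 went from 62.6% to 66.2% and from 41.8% to 70.5%. How many of all genes dropped 4-fold or deepened was not counted, so no trait of the members is read from these counts. The 8 members with deeper drops in neither mutant at 12 DAF were AT1G18460, AT1G55360, AT1G65090, AT1G73020, AT3G19800, OCT4, AT4G24810 and CHR42. The fus3-3 drop exceeded the lec1-1 drop for 57 members at 8 DAF and for 72 at 12 DAF. Across the 104 members the drops in the mutants correlated with Pearson's r of 0.46 and Spearman's rho of 0.47 at 8 DAF, and 0.74 and 0.76 at 12 DAF. The points share probe sets and a common cutoff, while the fus3-3 and lec1-1 comparisons share no array, and the values are descriptive.

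**Figure D2:**
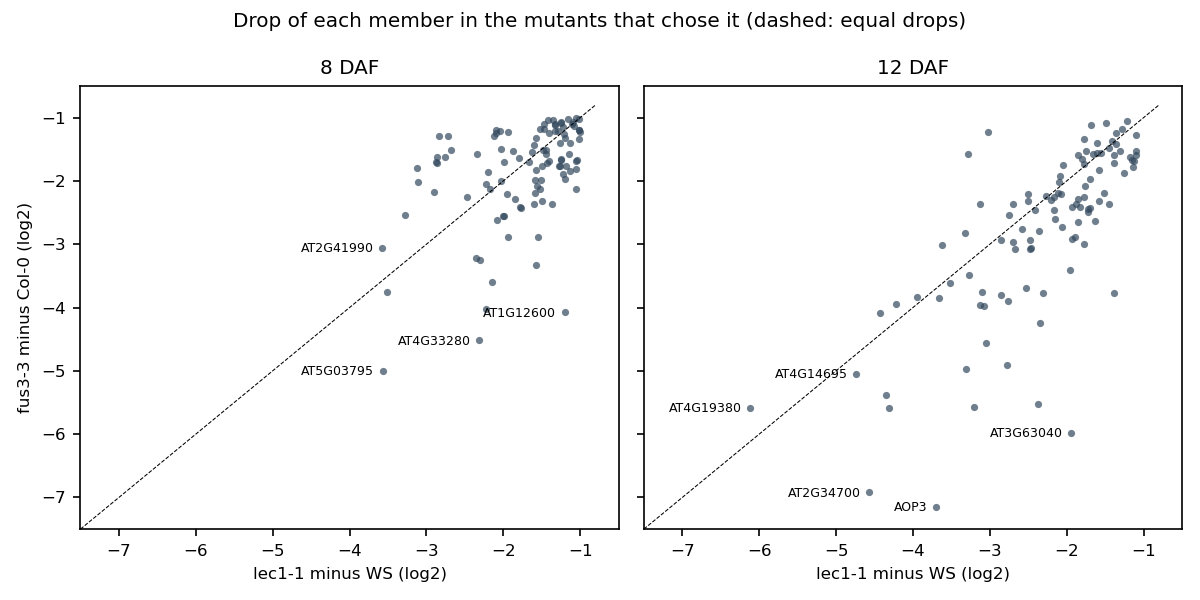
Log2 difference of each of the 104 members in fus3-3 against Col-0 (vertical axis) and in lec1-1 against WS (horizontal axis) at 8 and 12 DAF, with a dashed line of equal drops. At 12 DAF, 72 points lie below the line, with AOP3, AT2G34700 and AT3G63040 the lowest, and AT4G19380 lies farthest left.

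AT5G03795 had the deepest drop by the weakest of its 4 differences. At 8 DAF it read 8.48, 8.38 and 8.08 in Col-0 and 3.77, 3.21 and 2.97 in fus3-3, and 8.76, 8.98 and 8.99 in WS and 5.57, 5.34 and 5.10 in lec1-1. At 12 DAF it read 8.82, 8.48 and 8.64 in Col-0 against 3.62, 3.08 and 2.54 in fus3-3, and 9.22, 9.23 and 9.16 in WS against 6.02, 6.22 and 5.76 in lec1-1. The groups were far apart at each age, with group means lower 32.0-fold and 47.4-fold in fus3-3 and 11.9-fold and 9.23-fold in lec1-1. AT2G41990 followed, lower in fus3-3 by -3.06 and -3.61 and in lec1-1 by -3.57 and -3.51 at 8 and 12 DAF.

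AT1G54860 had a deeper drop at 12 than at 8 DAF in fus3-3 and a shallower one in lec1-1. It read 12.99, 13.01 and 12.51 in Col-0 at 8 DAF and 13.74, 13.83 and 13.69 at 12 DAF, against 9.54, 8.46 and 9.22 and then 8.32, 8.75 and 7.62 in fus3-3. In WS it read 13.50, 13.40 and 13.55 and then 13.74, 13.65 and 13.72, against 10.38, 9.75 and 9.78 and then 11.28, 11.25 and 11.47 in lec1-1. The group means were thus lower by -3.76 and -5.52 in fus3-3 and by -3.51 and -2.37 in lec1-1, with no overlap of arrays.

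AT1G53690, AT4G33280, AT4G19380 and AT3G03590 complete the members of largest weakest drop, with AOP3. AT4G33280 was lower by -4.52 and -5.59 in fus3-3 and by -2.31 and -4.31 in lec1-1 at 8 and 12 DAF. AT4G19380 had the deepest lec1-1 value of the set, 9.37 ± 0.19 in WS against 3.25 ± 0.15 in lec1-1 at 12 DAF (SD, n = 3), a 69.4-fold difference, and its fus3-3 arrays at 8 DAF were spread widely at 7.28, 5.38 and 7.20. AT1G53690 was lower by -3.22 and -4.09 in fus3-3 and by -2.35 and -4.43 in lec1-1, and AT3G03590 by -2.61 and -2.94 and by -2.08 and -2.48.

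Several of the brightest probe sets were far lower at 12 than at 8 DAF in fus3-3 while the wild type stayed bright. AT2G34700 read 14.08, 13.98 and 13.94 in Col-0 at 8 DAF and 13.29, 13.18 and 13.30 at 12 DAF. In fus3-3 it read 11.12, 10.51 and 10.38 at 8 DAF and 7.18, 5.92 and 5.90 at 12 DAF, a difference from Col-0 of -3.33 and then of -6.92. In lec1-1 the difference from WS went from -1.57 at 8 DAF to -4.57 at 12 DAF. AT3G63040 behaved alike in fus3-3, with 13.73 ± 0.11 and 14.48 ± 0.07 in Col-0 against 11.54 ± 0.64 and 8.50 ± 0.99 in fus3-3 (SD, n = 3), and less so in lec1-1, where its differences were -1.59 and -1.94. AT1G47540, the brightest of the set at 14.11 over the wild types, was lower by -1.69 and -4.25 in fus3-3 and by -1.66 and -2.34 in lec1-1.

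AT1G62500, AT3G05500 and AT1G65090 were also among the brightest members, and their mutant signals stayed high. AT1G62500 was lower by -1.22 and -1.55 in fus3-3 and by -1.93 and -1.61 in lec1-1 at 8 and 12 DAF. AT3G05500 was lower by -1.33 and -2.32 and by -1.57 and -1.58. AT1G65090 was lower by -2.41 and -1.74 and by -1.78 and -1.77, with fus3-3 arrays of 10.16, 8.89 and 9.47 at 8 DAF and of 11.04, 11.01 and 11.07 at 12 DAF. In all of them every group mean of fus3-3 and lec1-1 was at 9.51 or above.

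For 7 members a mutant group mean was under 3 on the log2 scale, close to the lowest values on the arrays (1.65 to 1.761), so their differences there are lower bounds. They were AT1G12600, AT3G08840, OCT4, AT4G14695, AT4G24810, AT5G11870 and CHR42. Other mutant groups lay just above 3, and their large folds also rest on low signal. At 12 DAF these included AT4G19380 in lec1-1 (mean 3.25), AT1G53690 in fus3-3 (mean 3.12) and AT5G03795 in fus3-3 (3.62, 3.08 and 2.54). AT1G12600 read 6.42, 6.54 and 6.61 in Col-0 at 8 DAF and 2.28, 2.51 and 2.54 in fus3-3. AT4G14695 still read 7.37, 6.53 and 6.44 in fus3-3 at 8 DAF and was at 2.63, 2.93 and 2.64 at 12 DAF, with Col-0 at 7.78 ± 0.46 (SD, n = 3).

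The members nearest the threshold were AT5G24580, AT1G05410 and AT5G40970, each with a weakest drop of -1.01. The nearest genes outside it were AT5G14500 at -0.997, AT4G34630 at -0.996 and AT4G29590 at -0.994. The edge of the set therefore separates genes by less than the median SD of a member within a group, 0.16.

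A name in the annotation used was carried by 12 members, and the rest are given by locus. By role most of the named members fall into glucosinolate metabolism and transport, primary metabolism, membrane transport, autophagy and trafficking, and signalling and gene regulation. ATB2 and CPUORF47 were given no role. AOP3 is a dioxygenase that modifies the side chain of aliphatic glucosinolates, the sulphur-containing defence compounds of the cabbage family. It read 12.33, 11.90 and 12.34 in Col-0 at 12 DAF and 5.24, 5.64 and 4.23 in fus3-3, a 142-fold difference and the largest drop of the set. At 8 DAF the fus3-3 arrays read 7.78, 8.10 and 8.48 against 11.41, 11.42 and 11.28. In lec1-1 the 3 arrays lay between 9.89 and 9.90 at 8 DAF and between 8.26 and 8.45 at 12 DAF, with WS between 11.97 and 12.29, and the group means were lower by -2.30 and -3.70. GTR1, a transporter that carries glucosinolates across the plasma membrane and loads them into seeds, had much smaller drops, -1.11 and -1.09 in fus3-3 and -1.47 and -1.49 in lec1-1 at 8 and 12 DAF. Its signal at 8 DAF was 7.21, 7.47 and 7.95 in Col-0 and 6.52, 6.82 and 5.98 in fus3-3, and the groups did not overlap.

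GPDHp, the plastid glycerol-3-phosphate dehydrogenase, makes the glycerol backbone of glycerolipids. It read 10.66, 10.57 and 10.48 in Col-0 and 8.88, 9.16 and 9.17 in fus3-3 at 8 DAF, then 10.94, 10.33 and 11.07 and 6.92, 6.97 and 6.89 at 12 DAF. In WS and lec1-1 it read 10.86 ± 0.11 and 8.19 ± 0.17 at 8 DAF and 10.21 ± 0.05 and 6.55 ± 0.27 at 12 DAF (SD, n = 3). Both mutants were thus lower by more than 12-fold at 12 DAF, 14.5-fold and 12.6-fold. PGM, annotated as a phosphoglycerate mutase, the enzyme family that moves a phosphate within glycolysis, was lower by -1.70 and -3.96 in fus3-3 and by -2.87 and -3.12 in lec1-1.

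OCT4, a transporter of the organic cation and carnitine family, was among the few members that were higher at 12 than at 8 DAF, and nearer the wild type, in both mutants. Its fus3-3 arrays read 2.58, 2.93 and 2.23 at 8 DAF and 5.13, 4.89 and 4.85 at 12 DAF, while Col-0 read 6.21, 6.37 and 5.95 and then 7.11, 7.02 and 7.31. Its lec1-1 arrays read 4.22, 4.48 and 4.49 and then 5.47, 5.68 and 6.07, with WS at 6.55 ± 0.18 and 7.25 ± 0.09 (SD, n = 3). The difference in fus3-3 went from -3.59 to -2.19 and that in lec1-1 from -2.15 to -1.51.

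ATG8C, a ubiquitin-like protein joined to lipid on the autophagosome membrane, had shallow drops of -1.16 and -1.69 in fus3-3 and of -1.23 and -1.13 in lec1-1. CCZ1a (AT1G16020), part of the complex that activates the Rab7 type of GTPase in traffic to the vacuole, was lower by -1.20 and -1.59 and by -1.33 and -1.39. In neither gene did any fus3-3 or lec1-1 array reach an array of its own wild type at the same age.

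GSO1, a leucine-rich repeat receptor kinase needed for the embryonic cuticle, was lower in fus3-3 by -1.86 at 8 DAF and -1.23 at 12 DAF and in lec1-1 by -2.20 and -3.02. SPT, a basic helix-loop-helix transcription factor known from carpel growth and seed dormancy, was lower by -1.77 and -1.18 in fus3-3 and by -1.27 and -1.28 in lec1-1. CHR42 carries the name chromatin remodeling 42. It read 6.66, 6.78 and 6.74 in WS at 8 DAF and 3.24, 3.54 and 3.59 in lec1-1, then 6.93, 7.11 and 6.70 and 5.06, 4.88 and 4.52 at 12 DAF. Its lec1-1 difference went from -3.27 to -2.10 and its fus3-3 difference from -2.54 to -2.02. CPUORF47, annotated as a conserved peptide of an upstream open reading frame, had nearly equal drops in all 4 comparisons, from -1.30 to -1.53. ATB2 was lower by -1.54 and -1.33 in fus3-3 and by -1.63 and -1.77 in lec1-1.

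**Figure D3:**
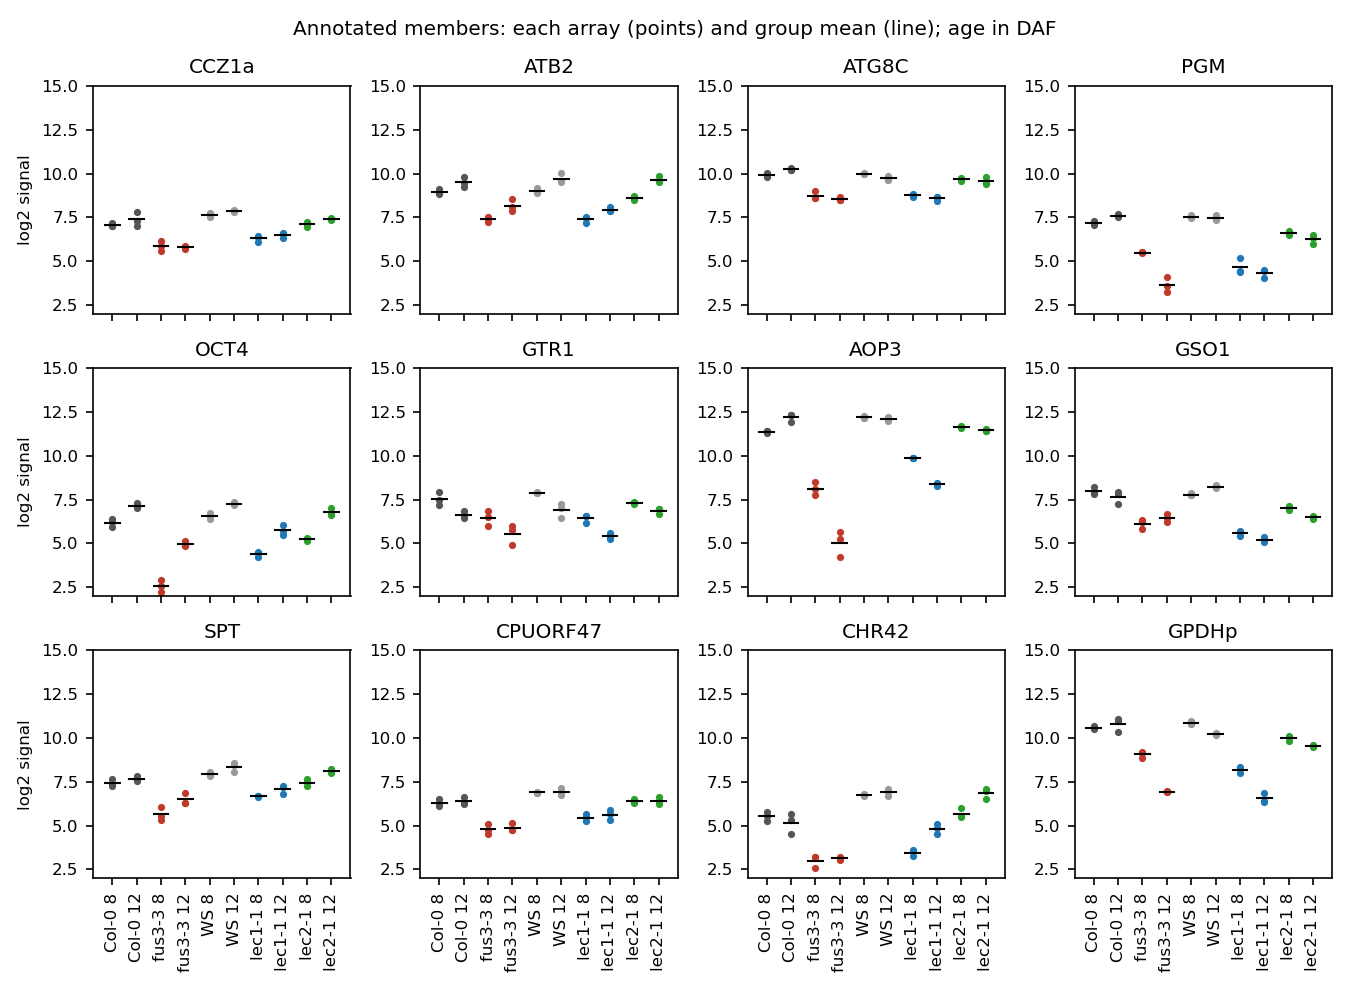
Log2 signal on each array (points) with the group mean (line) for the 12 members with a name, in the 10 groups of genotype and age in DAF. AOP3 and PGM drop furthest in fus3-3 at 12 DAF, OCT4 is higher at 12 than at 8 DAF in every genotype, and the lec2-1 points (green) lie between lec1-1 and WS or at WS.

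ATB2 and AT1G60690 lie next to each other on chromosome 1 with no measured gene between them, and AT1G60690 was lower by -1.71 and -1.83 in fus3-3 and by -1.43 and -1.58 in lec1-1. Whether their probe sets share signal was not tested. By locus, chromosomes 1 to 5 carry 29, 10, 24, 17 and 22 of the 102 members that the gene table holds, against 3411, 2169, 2720, 1935 and 2981 of the measured genes, and AT5G60460 and AT5G40970 were not in the table.

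The lec2-1 arrays played no part in the choice of members, and lec2-1 was tested against WS. The WS arrays did play a part, since the rule asked for WS to be at least 1 log2 unit above lec1-1. Genes whose WS arrays happened to read high were thus favoured, which moves lec2-1 minus WS downward, so the members' counts set beside those of all genes are not independent of the rule and the size of this shift was not tested. The lec1-1 and lec2-1 values, which share the WS arrays, are given side by side and no overlap is read from them. The shares of all genes also include dim genes, while all 104 members were above the wild-type median of all genes (3.92). Shares among genes of like signal were not taken. In lec2-1 most members were modestly lower. At 8 DAF 9 of 104 members (8.65%) passed an adjusted p under 0.05 and 2-fold in limma, against 1.08% of all genes called lower. With the same adjusted p and no fold minimum 72 members (69.2%) were lower, against 5.92% of all genes. The median member changed by -0.52 (range -1.33 to 0.05, median SE 0.136), all genes by 0.01, and 103 of 104 members had a negative value, against 44% of all genes. The 72 became 47 without replicate 2 of lec2-1 at 8 DAF, when 3.81% of all genes were called.

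At 12 DAF 7 members (6.73%) passed both thresholds, against 1.32% of all genes, and 70 members (67.3%) were lower with no fold minimum, against 26.4% of all genes. The median member changed by -0.52 (range -1.75 to 0.88), all genes by -0.08, and 100 members had a negative value, against 74.1% of all genes. With no fold minimum 52 members were lower at both ages, 20 at 8 DAF alone, 18 at 12 DAF alone and 14 at neither, against 2.1%, 3.82%, 24.3% and 69.8% of all genes. AT3G19800 was the 1 member higher at 12 DAF with no fold minimum, against 10.5% of all genes. When each array was centred on 4 reference genes, the median change of all genes moved from 0.01 to 0.14 at 8 DAF and from -0.08 to 0.04 at 12 DAF. The counts past both thresholds were then 2 at 8 DAF and 5 at 12 DAF, and those with no fold minimum 40 and 44, against 2.8% and 6.35% of all genes. One of these reference genes, SAND, was itself lower in lec2-1 by -0.35 and -0.44.

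Markers of other tissues were read beside these counts. ALC had a mean of 3.207 in WS and 3.855 in lec2-1 at 8 DAF, and of 3.433 and 4.999 at 12 DAF, where its arrays ran from 3.206 to 3.839 in WS and from 4.938 to 5.111 in lec2-1. The 3 endosperm genes summed to 4.255 to 4.325 in WS and 4.265 to 4.893 in lec2-1 at 12 DAF, with MPC at 0.87 (adjusted p = 0.0529), AGL62 at -0.09 and IKU2 at -0.16. The seed coat genes BAN, SBT1.7 and PER36 were at 0.33, 0.14 and -0.01 at 8 DAF and at -0.13, -0.29 and -0.12 at 12 DAF. The signal of the actin 3' minus 5' probe sets, a measure of RNA quality, was 0.111 ± 0.063 in WS and 0.356 ± 0.082 in lec2-1 at 12 DAF (SD, n = 3), and 0.853 ± 0.101 and 0.973 ± 0.062 at 8 DAF. The same measure of GAPDH was 0.336 ± 0.197 in WS and 0.142 ± 0.21 in lec2-1 at 12 DAF, the opposite direction, and 0.173 ± 0.108 and 0.308 ± 0.09 at 8 DAF. The part of these differences in the results was not tested. Beside the drops of fus3-3 and lec1-1, ALC, the endosperm sum and the actin difference were also above the wild type at 12 DAF, the last at 1.422 and 0.825 against -0.24 in Col-0 and 0.111 in WS. The GAPDH difference was then 0.458 in fus3-3 against 0.272 in Col-0, and 0.338 in lec1-1 against 0.336 in WS.

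**Figure D4:**
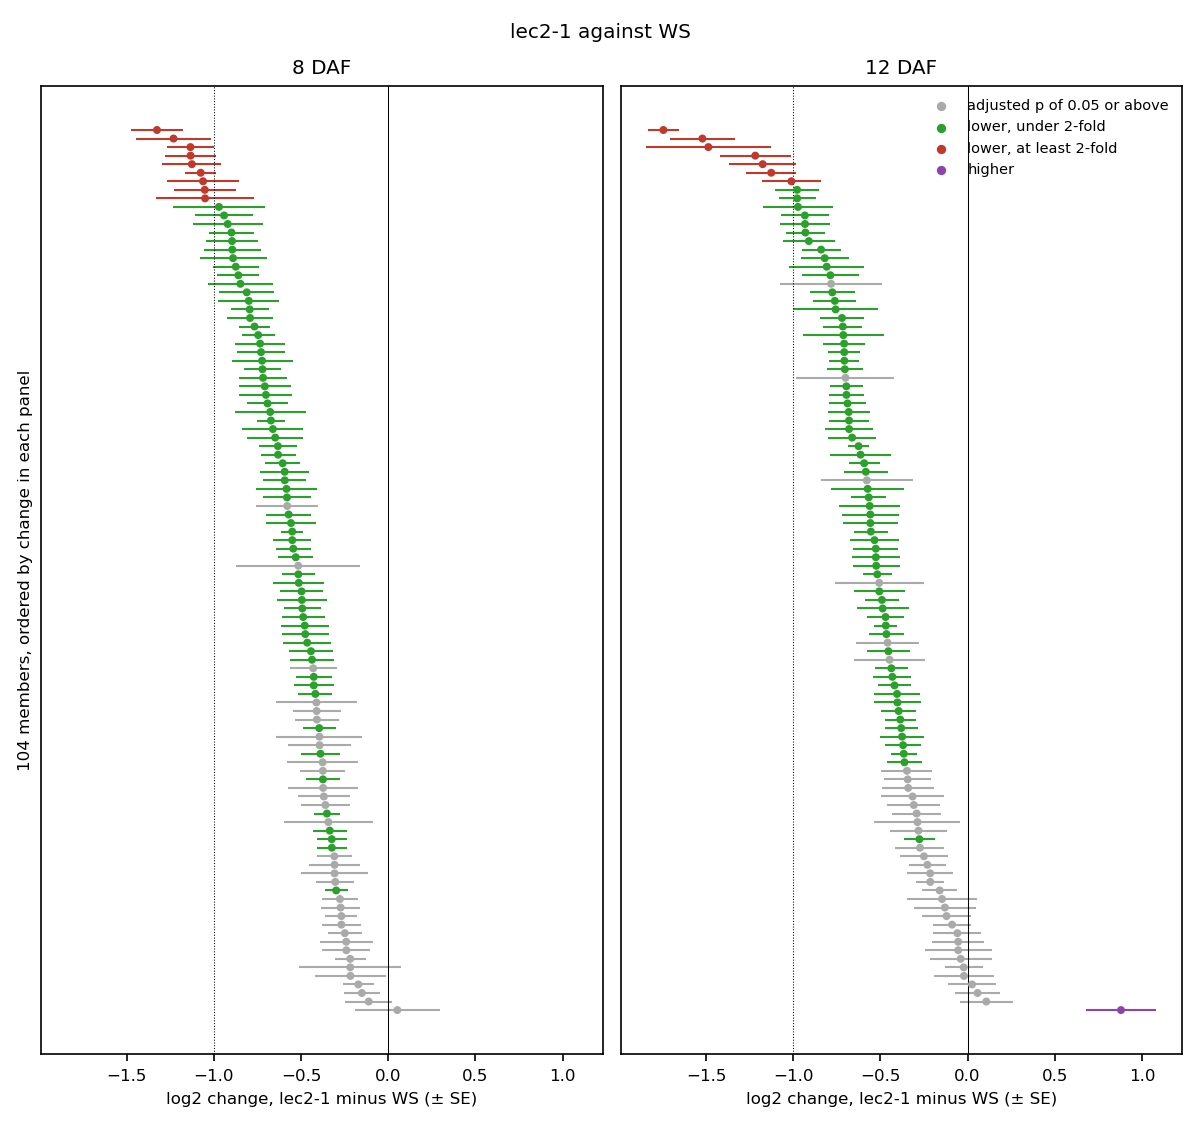
Log2 change of each of the 104 members in lec2-1 against WS with its SE, ordered by size in each panel, at 8 DAF (left) and 12 DAF (right), with a dotted line at 2-fold lower. Most members lie between 0 and -1 at both ages, 9 and 7 pass the dotted line with an adjusted p under 0.05, and AT3G19800 is the 1 higher member at 12 DAF.

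Both thresholds were passed by 15 members at 1 age or the other, and by AT2G41990 at both. AT2G41990 read 8.77, 8.77 and 8.66 in WS and 7.79, 7.69 and 7.34 in lec2-1 at 8 DAF, then 8.41, 8.30 and 8.27 and 7.57, 7.18 and 7.19 at 12 DAF. The groups did not overlap, and it fell by 1.13 ± 0.17 and 1.01 ± 0.17 log2 units (SE, adjusted p = 0.000673 and 0.000552), beside lec1-1 values of -3.57 and -3.51. It was under 2-fold at 8 DAF without replicate 3 of lec2-1 (-0.99), and at 12 DAF without replicate 1 of WS (-0.97) or replicate 2 or 3 of lec2-1 (-0.95 each). With the arrays centred on the reference genes it was under 2-fold at both ages (-0.99 and -0.88), so no member then passed both thresholds at both ages.

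GSO1 had the deepest lec2-1 change of the set. At 12 DAF it read 8.15, 8.33 and 8.23 in WS, 6.52, 6.39 and 6.57 in lec2-1 and 5.09, 5.38 and 5.19 in lec1-1, so the 3 genotypes were fully separated. It fell in lec2-1 by 1.74 ± 0.09 at 12 DAF (adjusted p = 4.56e-09), while its change at 8 DAF was -0.77 ± 0.09 (adjusted p = 0.00011). PGM fell by 1.18 ± 0.19 at 12 DAF (adjusted p = 0.000468), from 7.33, 7.39 and 7.64 in WS to 6.34, 6.01 and 6.48 in lec2-1. AT4G19380 fell by 1.52 ± 0.18 (adjusted p = 3.57e-05), from 9.58, 9.21 and 9.31 to 7.80, 8.27 and 7.48. AT1G07380, AT4G14695 and AT5G11870 were the other members past both thresholds at 12 DAF, with changes of -1.13, -1.22 and -1.49, and AT1G07380 was at -0.9986 after centring. AT5G11870 is dim, with WS at 5.08, 4.38 and 4.78 and lec2-1 at 2.68, 3.54 and 3.56.

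At 8 DAF OCT4 changed most. It read 6.75, 6.48 and 6.41 in WS, 5.24, 5.11 and 5.32 in lec2-1 and 4.22, 4.48 and 4.49 in lec1-1, and fell in lec2-1 by 1.33 ± 0.15 (adjusted p = 8.28e-05). AT1G53690 fell by 1.23 ± 0.21 at 8 DAF (adjusted p = 0.00198), from 10.15, 10.14 and 10.52 to 9.39, 8.54 and 9.18, and its change was -0.98 without replicate 2 of lec2-1. AT1G54860 fell by 1.13 ± 0.14 (adjusted p = 0.000145) and AT4G14780 by 1.13 ± 0.14 (adjusted p = 0.000199). AT1G55360, AT3G08840, AT4G24810 and CHR42 were the others past both thresholds at 8 DAF, with changes of -1.08, -1.05, -1.06 and -1.05. After centring on the reference genes OCT4 and AT1G53690 still passed both thresholds at 8 DAF, at -1.19 and -1.10, while AT1G54860, AT4G14780 and the 4 others lay between -0.9983 and -0.9144, under 2-fold. CHR42 was at -0.99 without replicate 2 and -0.96 without replicate 3 of lec2-1.

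At the other end were the 6 members of least change in lec2-1 among the brighter part of the set (wild-type mean at or above the member median of 8.17). AT1G47540 read 14.15, 14.30 and 13.91 in WS and 13.98, 13.73 and 13.93 in lec2-1 at 8 DAF, and 14.35, 14.42 and 14.49 and 14.52, 14.52 and 14.54 at 12 DAF. Its lec2-1 change was -0.24 ± 0.15 and 0.11 ± 0.15 (adjusted p = 0.457 and 0.592), beside lec1-1 values of -1.66 and -2.34. At 12 DAF this probe set stood near the top of the scale, where the highest gene of an array read 14.67 to 14.81 in WS and 14.65 to 14.84 in lec2-1, and whether its signal could still follow the transcript there was not tested. AT3G63040 changed by -0.30 ± 0.11 and -0.09 ± 0.11 (adjusted p = 0.0973 and 0.532), and at 12 DAF by 0.04 when the arrays were centred on the reference genes. AT2G35470 changed by -0.27 and -0.02, AT4G22850 by -0.31 and -0.35, and ATG8C by -0.31 and -0.16, with adjusted p of 0.0619 or above in each of these 6 tests. AT5G05480 changed by -0.17 at 8 DAF (adjusted p = 0.321) and by -0.28 at 12 DAF (adjusted p = 0.0302). A p above the threshold does not show that lec2-1 equals WS.

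Most of the named members changed in lec2-1 by less than 1 log2 unit. GPDHp fell by 0.86 ± 0.12 at 8 DAF and by 0.68 ± 0.12 at 12 DAF (adjusted p = 0.000412 and 0.000857), and its lec2-1 arrays read 10.09, 9.84 and 10.07 and then 9.60, 9.54 and 9.46, below every WS array. AOP3 fell by 0.55 ± 0.06 and 0.63 ± 0.06 (adjusted p = 8.4e-05 and 4.95e-06), with lec2-1 between 11.60 and 11.69 and then between 11.40 and 11.51. CCZ1a fell by 0.53 and 0.47, and CPUORF47 by 0.51 at both ages, with adjusted p of 0.0367 or below in each of these 4 tests. GTR1 and SPT fell at 8 DAF by 0.58 and 0.48 (adjusted p = 0.0442 and 0.0374), and their values at 12 DAF were -0.02 and -0.25 (adjusted p = 0.934 and 0.161). ATB2 was at -0.41 and -0.06 (adjusted p = 0.0756 and 0.758). AT5G03795, which dropped most in fus3-3 and lec1-1 at its weakest, fell in lec2-1 by 0.90 ± 0.15 and 0.91 ± 0.15 (adjusted p = 0.0014 and 0.000443).

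Side by side with lec1-1, every lec2-1 change was the smaller. The lec2-1 difference came to a median of 32.2% of the member's lec1-1 difference in log2 units at 8 DAF and 24.4% at 12 DAF. It was under 50% for 94 members at 8 DAF and for 100 at 12 DAF, and 0 members reached 100%. All 3 lec1-1 arrays lay below all 3 lec2-1 arrays for 103 members at 8 DAF and 104 at 12 DAF, against 15.5% and 48.9% of all genes. All 3 lec2-1 arrays lay below all 3 WS arrays for 90 members at 8 DAF and 80 at 12 DAF, against 13.8% and 49.6% of all genes. Since low lec1-1 values chose the members and WS enters both differences, these are descriptions of the set.

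**Figure D5:**
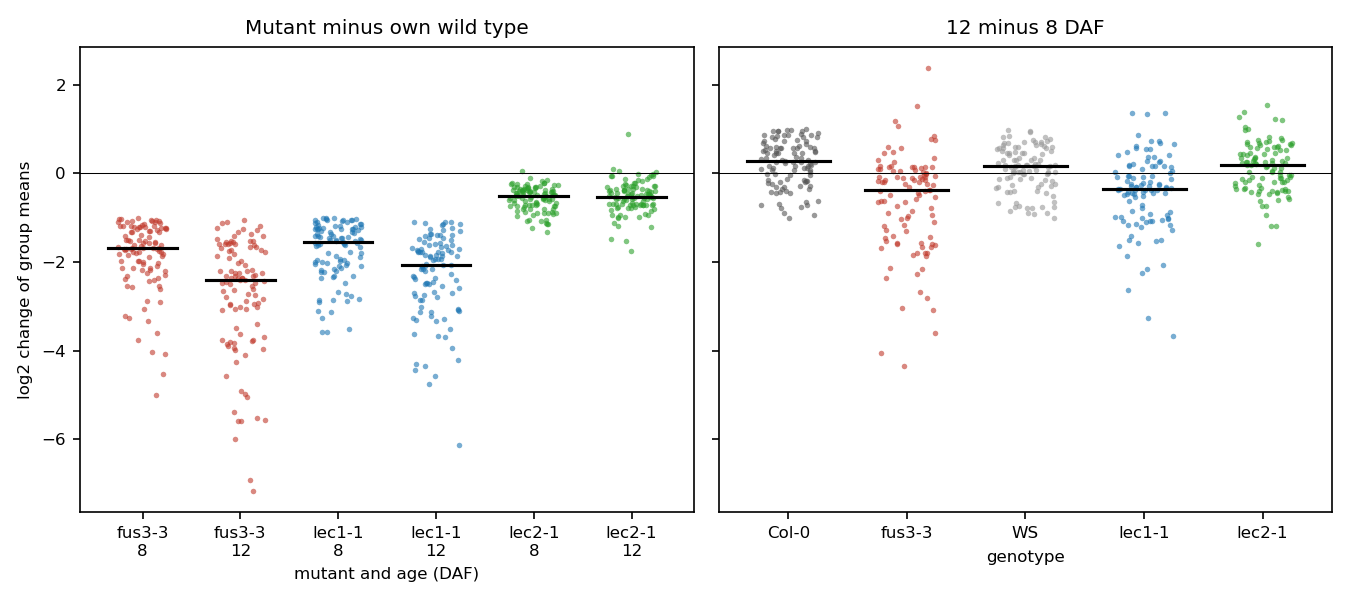
Log2 differences of group means for the 104 members (points, black line at the median), for each mutant against the wild type of its accession at 8 and 12 DAF (left) and for 12 minus 8 DAF within each genotype (right). The lec2-1 medians lie at -0.52 at both ages, and the age changes spread more widely in fus3-3 and lec1-1 than in the wild types, where the rule held them between -1 and 1.

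In fus3-3 75 of 104 members were lower at 12 than at 8 DAF, against 42.5% of all genes. In lec1-1 73 of 104 were lower, against 63.9% of all genes, which is a similar share. The rule used these arrays, so neither count is read as a trait of the members. The median 12 minus 8 DAF change was -0.38 in fus3-3 (range -4.34 to 2.38) and -0.34 in lec1-1 (-3.66 to 1.36), beside 0.28 in Col-0 and 0.16 in WS. In fus3-3 35 members were lower by 1 log2 unit or more at 12 DAF and 4 were higher, and in lec1-1 26 were lower and 3 higher. The shares of all genes past 1 log2 unit were not counted here, so no trait of the members is read from these counts. AT2G34700 had the largest such difference in both, -4.34 and -3.66. AT1G60970 followed in lec1-1 at -3.25, with -3.61 in fus3-3, and AT4G14695 in fus3-3 at -4.05, with -2.25 in lec1-1. The 4 members higher in fus3-3 were OCT4 (2.38), AT1G65090 (1.53), AT3G28940 (1.19) and AT3G43270 (1.08), and the 3 in lec1-1 were CHR42 (1.36), AT1G54860 (1.36) and OCT4 (1.35). AT3G43270 went the other way in lec1-1, at -1.42. These arrays chose the members, so the values carry no test.

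In lec2-1, whose arrays at neither age were used by the rule, 10 members changed with age past both thresholds. Of these 7 rose (6.73%), near the 6.64% of all genes, and 3 fell (2.88%), against 6.34% of all genes. The rule held the age change small in WS, the accession of lec2-1. The members' shares here and with no fold minimum are therefore not independent of the rule, and the size of this was not tested. OCT4 rose by 1.54 ± 0.15 (adjusted p = 1.6e-06), from 5.24, 5.11 and 5.32 at 8 DAF to 6.65, 7.02 and 6.62 at 12 DAF. AT1G54860 rose by 1.38 ± 0.14 (adjusted p = 2.05e-06), from 12.52, 12.17 and 12.35 to 13.67, 13.81 and 13.70. AT4G01330 rose by 1.26 ± 0.20 (adjusted p = 0.000184), with no overlap of arrays in any of these genes. The other risen members were AT3G61260, CHR42, ATB2 and AT1G65090, by 1.23, 1.20, 1.05 and 1.01.

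AT5G17980 fell most with age in lec2-1, by 1.59 ± 0.24 (adjusted p = 0.000143), from 5.63, 6.41 and 5.62 to 4.23, 4.40 and 4.26. AT4G14695 fell by 1.18 ± 0.20 (adjusted p = 0.000379), and was at -0.97 without replicate 3 of lec2-1 at 12 DAF. AT1G52670 fell by 1.18 ± 0.10 (adjusted p = 3.08e-07), beside -0.90 in WS. With no fold minimum 39 members rose (37.5%, against 16.2% of all genes) and 19 fell (18.3%, against 15.8%).

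The lec2-1 effect itself differed between the ages for 3 members past both thresholds, all in the positive direction (2.88%, against 5.14% of all genes). The WS change with age, which enters this test, was limited by the rule. With no fold minimum 9 were positive (8.65%, against 8.36% of all genes) and 4 negative (3.85%, against 11.4%). AT3G19800 read 7.59, 7.44 and 7.68 in WS and 6.86, 6.70 and 7.12 in lec2-1 at 8 DAF, and 6.93, 6.48 and 6.61 and 7.45, 7.91 and 7.30 at 12 DAF, so the genotypes changed order. Its effect went from -0.68 to 0.88, a difference of 1.56 ± 0.29 (adjusted p = 0.00205). In fus3-3 the same gene stayed at 3.52 and 3.58 with Col-0 at 7.55 and 7.35, and in lec1-1 at 5.35 and 5.29. AT1G54860 went from -1.13 to 0.03, a difference of 1.16 ± 0.19 (adjusted p = 0.000951). CHR42 went from -1.05 to -0.04, a difference of 1.01 ± 0.25 (adjusted p = 0.0135), which was between 0.89 and 0.98 without any 1 of 6 arrays and 0.95 after quantile normalization. GSO1 was the largest negative value at -0.98 ± 0.13 (adjusted p = 0.000113), just under the fold threshold.

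The lists of maturation genes read beside the members hold none of them, which the rule fixed in part: it leaves out genes of these lists by name, and AT3G01570 of the oil body list met its thresholds. Of 4 measured maturation regulators (EEL, BZIP53, AGL67 and BBM), 2 were lower in fus3-3 at 8 DAF and 4 at 12 DAF, 3 in lec1-1 at each age, and 2 and 1 in lec2-1. Of 5 seed storage genes 3 and 5 were lower in fus3-3, and 4 and 4 in lec1-1. Of 4 oil body genes 2 and 4 were lower in fus3-3, with AT2G25890 higher at 8 DAF by 1.52 and lower at 12 DAF by -1.76, and 3 and 4 were lower in lec1-1. Of 3 genes of fatty acid synthesis, FaTA and FATA2, thioesterases that release fatty acids in the plastid, were lower at 12 DAF by -3.82 and -3.10 in fus3-3 and by -4.32 and -2.47 in lec1-1, and FATB was at -0.43 and 0.29. Among markers of other tissues, PER36 of the seed coat was lower in fus3-3 at 8 DAF by -2.06, MPC of the endosperm was higher at 12 DAF by 3.05 in fus3-3 and 3.39 in lec1-1, and ALC was higher at 12 DAF by 1.67 in fus3-3, 2.06 in lec1-1 and 1.57 in lec2-1. Of the 4 reference genes SAND was lower in lec1-1 by -0.59 at 8 DAF and -1.08 at 12 DAF, and TIP41 by -0.64 and -0.80. AT4G33380 was at 0.13 and 0.29 there, and AT5G15710 at 0.29 and -0.07. In lec2-1 FaTA was lower at 12 DAF by -1.16 (adjusted p = 0.000112). The medians of the 5 storage genes and the 4 oil body genes in lec2-1 were -0.51 and -0.37 at 8 DAF and -0.24 and -0.16 at 12 DAF, beside -0.52 at both ages for the 104 members, and these medians were not tested against each other.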

How the data were processed

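Total RNA of developing seeds was labelled with biotin and hybridized to Affymetrix arrays of 22810 probe sets. Per the submitters' processing notes, the authors used GCOS 1.3 and GCRMA, whose version was not given in the sources used here, and they deposited log2 signal values. The medians of the arrays lay between 4.3 and 4.713. The number of arrays, 3 per group, limits the precision. The files name no build, and no coordinates are given.

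Probe sets paired with 1 gene (13513, beside 64 controls, 503 with several genes and 8730 with none) gave 13355 genes, 13285 of them in the TAIR10.1 gene table. For 147 genes with several, the probe set of highest mean over the 30 arrays was kept. Groups follow the sample titles. Each set was fitted with limma 3.58.1 in R 4.3.3 (lmFit and eBayes, 1 mean per group, 12 arrays for Col-0 and fus3-3 and 18 for WS, lec1-1 and lec2-1), with Benjamini-Hochberg adjustment over all 13355 genes. A gene was called at an adjusted p under 0.05 and 1 log2 unit, or at that p with no fold minimum where stated. Folds are powers of 2 of differences in log2 means. In simulated data with log2 changes of 1.5 and 2, the lec2-1 comparison recovered 94% and 99% at 8 DAF and 93% and 99% at 12 DAF, its age change 97% and 100%, and the difference between ages 76% and 93%. Smaller changes, such as the members' median of -0.52 in lec2-1, were not simulated, so recovery at that size is not known.

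The members, the lists and the rule for named genes were chosen with earlier results of these data known. The rule names the 8 members of largest weakest drop, the 8 of brightest wild-type signal, the 6 most and 6 least changed in lec2-1, the 3 largest of each called age change or age difference, the 3 nearest each side of the threshold, and the members with a name. The rest were named after their values were seen. Role classes from gene descriptions could not be formed, since the table holds none. Lists of cuticle, seed coat, endosperm, silique wall and reference genes had 0, 3, 3, 1 and 4 measured genes, and no cuticle gene could be read. Same-numbered arrays did not deviate together (correlations of -0.162 to 0.0837), so numbers were not taken as pairs. The alternatives were quantile normalization, centring on reference genes, a filter on dim genes, other sets of arrays, trended variances, averaged probe sets, other thresholds, the replicate block and leaving out each array. Figures used matplotlib 3.10.9 in Python 3.11.15.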

Additional observations from a re-analysis of the deposited data

Results flagged for a closer look

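The lec2-1 effect differed between 12 and 8 DAF in limma's test of that difference for 3 members. The effect at 12 DAF exceeded that at 8 DAF by 1.56 for AT3G19800, by 1.16 for AT1G54860 and by 1.01 for CHR42. No outlying sample could be tested for in groups of 3 arrays.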

How the results depend on the processing

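The rule kept 93 genes after quantile normalization, 89 of them members, and 77 after centring on reference genes, 66 of them members. The 4 reference genes had a median lec1-1 difference of -0.23 at 8 DAF and -0.438 at 12 DAF. Centring thus makes lec1-1 drops smaller, and its part in the 77 was not tested. A drop of 1.5 kept 40, a drop of 0.8 kept 158, an age limit of 0.5 kept 45, and leaving out 1 array kept 97 to 108. In lec2-1 at 8 DAF, 9 members were lower past both thresholds, 2 after centring, 72 with no fold minimum and 6 to 9 without 1 array. At 12 DAF there were 7, with 70 with no fold minimum and 6 to 10 without 1 array. The settings for counts with no fold minimum were added after seeing the data. At 8 DAF these were 40 after centring, 45 with all 30 arrays in 1 fit, 43 at an adjusted p under 0.01 and 47 to 56 without 1 array. At 12 DAF they were 44 after centring and 56 to 66 without 1 array. Age changes in lec2-1 numbered 10, with 58 with no fold minimum and 8 to 12 without 1 array, and differences between ages 3, with 13 and 2 to 4. With the replicate number as a block the counts were 9, 7, 10 and 3, and 70 and 71 with no fold minimum, and no count moved by over 1.5 times. Fewer arrays widen the error of each test, and the cause of the other shifts was not tested.

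For 90 single-member values, 1256 of 1308 recalculations kept direction and side of the threshold, 20 lost the call, 12 gained it and 20 changed sign. The dim-gene filter, other sets of arrays, replicate block, trended variances and averaged probe sets leave a member's log2 difference as it is. Direction and fold were fixed there in advance, so the 1256 does not measure robustness. All the changes came from quantile normalization, centring or leaving out 1 array. AT5G17980 at 8 DAF ran from -0.2094 to 0.1864 as 1 array was left out. At 12 DAF the ranges without 1 array were -0.0154 to 0.0532 for AT1G54860, -0.1211 to 0.0394 for AT2G35470, -0.1575 to 0.1286 for CHR42, -0.1551 to 0.0964 for ATB2 and -0.2557 to 0.1499 for GTR1. After centring at 12 DAF, AT3G63040 was at 0.0384, AT2G35470 at 0.1049, CHR42 at 0.0877, ATB2 at 0.0687 and GTR1 at 0.1063.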
